A study of Homo sapiens and Homo sapiens
Mus musculus with 19 samples.

Results

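A set of 9 genes around p53 was followed through the RNAseq data of neuroblastoma (NB) cells with and without TWIST1. They were chosen by name as 2 inhibitors of p53 (MDM2 and MDM4), the locus that encodes a brake on MDM2 (CDKN2A) and 6 genes that p53 activates (CDKN1A, BAX, BBC3, PMAIP1, GDF15 and SESN1). Each of the 9 matched 1 row of the 57820 genes in the human count table, and all 9 were among the 10889 protein-coding genes that passed the filter on expression.

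SK-N-Be2c, a long-established line of human NB cells, carries an amplified MYCN gene, and in the sgTWIST1 samples the TWIST1 gene had been disrupted by CRISPR/Cas9. The groups compared were 3 Control (wild-type genotype) and 3 sgTWIST1 (TWIST1-KO genotype) clones of cultured cells, and 4 Control and 4 sgTWIST1 ortho_1 tumors grown from these cells in the adrenal gland of athymic Swiss nude mice, hosts without a thymus but with other immune cells. The tumors were taken at 1000 mm3. According to the paper, sgTWIST1 tumors of ortho_1 took longer than Control tumors to reach the volume for sacrifice. Time in the mouse and genotype therefore cannot be told apart in tumors. The sgTWIST1 cells injected were a pool of clones, so that the tumors were not matched to the clones in culture. According to the protocol 500000 cells were injected, while the design text gives 50000. The age of the mice is not among the sample labels.

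p53 is a transcription factor that is activated by DNA damage and other stress. It switches on genes that halt the cell cycle, repair DNA or start cell death, and one of its targets is its own ubiquitin ligase MDM2, which closes a feedback loop, while the related MDM4 covers the activation domain of p53. ARF, made from the CDKN2A locus, holds MDM2 back. In NB the p53 gene is rarely mutated at diagnosis and more often at relapse, and the SK-N-Be2c line is known to carry a mutated p53, which is background to all values below and was not measured here.

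The sequences before the start sites are shown because MDM2 carries the best known p53 element and because CDKN2A, BAX, GDF15 and SESN1 are the members whose levels passed a test between Control and sgTWIST1. Each line gives the 250 bases before a RefSeq start site (build GRCh38.p14), 5′ to 3′ on the strand of the gene. Capitals mark matches to the p53 consensus of 20 bases with at most 3 mismatches, and E-boxes (CANNTG), the motif that TWIST1 and other basic helix-loop-helix factors bind.
MDM2, internal start (chr12:68808767-68809016, plus strand): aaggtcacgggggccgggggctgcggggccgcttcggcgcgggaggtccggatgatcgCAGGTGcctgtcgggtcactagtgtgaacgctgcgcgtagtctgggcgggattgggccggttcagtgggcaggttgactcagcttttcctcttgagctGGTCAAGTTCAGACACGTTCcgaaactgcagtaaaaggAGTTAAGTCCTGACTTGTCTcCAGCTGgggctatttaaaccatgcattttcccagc
CDKN2A, ARF start (chr9:21995325-21995574, minus strand): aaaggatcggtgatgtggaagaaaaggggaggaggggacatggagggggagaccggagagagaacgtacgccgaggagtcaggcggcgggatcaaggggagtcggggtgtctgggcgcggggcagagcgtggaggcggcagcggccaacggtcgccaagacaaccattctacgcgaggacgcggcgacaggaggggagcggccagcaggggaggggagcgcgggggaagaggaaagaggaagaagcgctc
CDKN2A, p16 start (chr9:21974858-21975107, minus strand): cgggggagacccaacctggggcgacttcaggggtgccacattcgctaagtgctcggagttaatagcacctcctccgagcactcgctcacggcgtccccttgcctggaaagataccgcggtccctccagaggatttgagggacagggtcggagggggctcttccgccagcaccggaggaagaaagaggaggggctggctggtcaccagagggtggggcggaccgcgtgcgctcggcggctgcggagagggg
BAX (chr19:48954625-48954874, plus strand): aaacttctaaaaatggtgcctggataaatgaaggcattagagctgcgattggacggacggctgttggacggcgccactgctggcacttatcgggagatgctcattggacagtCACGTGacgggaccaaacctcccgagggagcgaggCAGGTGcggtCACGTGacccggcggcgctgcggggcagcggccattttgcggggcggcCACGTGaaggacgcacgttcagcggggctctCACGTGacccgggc
GDF15 (chr19:18385908-18386157, plus strand): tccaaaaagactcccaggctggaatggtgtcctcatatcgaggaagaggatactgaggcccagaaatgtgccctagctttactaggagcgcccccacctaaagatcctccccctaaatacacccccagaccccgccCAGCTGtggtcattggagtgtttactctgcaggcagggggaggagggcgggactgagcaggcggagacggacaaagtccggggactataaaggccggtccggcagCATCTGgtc
SESN1, most downstream start (chr6:109008989-109009238, minus strand): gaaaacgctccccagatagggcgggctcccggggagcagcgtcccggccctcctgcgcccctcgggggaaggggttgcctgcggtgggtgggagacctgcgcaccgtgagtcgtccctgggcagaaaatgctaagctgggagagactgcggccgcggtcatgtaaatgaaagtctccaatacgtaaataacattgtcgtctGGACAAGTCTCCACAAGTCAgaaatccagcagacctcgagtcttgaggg

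The MDM2 window held 2 matches to the p53 consensus, of which the first, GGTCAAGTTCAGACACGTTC, had 2 mismatches and began 94 bases before the start. It is the internal start of MDM2 that p53 is known to use. Of all 35116 windows of this length, 4.36% held a match with at most 3 mismatches and 0.561% one with at most 2. Over the 15 windows of the 9 genes, 4 held a match, in MDM2, SESN1 and PMAIP1. The pair of MDM2 windows with a match overlap and hold the same element, and the other windows of SESN1 had no match. The match of SESN1 was GGACAAGTCTCCACAAGTCA, 49 bases before its most downstream start, and that of PMAIP1 began 185 bases before the start. The consensus was searched without a gap inside it and reads the same on both strands.

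E-boxes were present in 8 of the 15 windows, against 61.8% of all windows, and in 5 of the 9 genes. Neither window of CDKN2A held an E-box or a p53 match, which says only that these letters are not in these 250 bases. The BAX window held 5 E-boxes, as did 0.888% of all windows with 5 or more. Among these 5, 4 read CACGTG, the form that MYCN and its partner MAX bind, which 6.34% of all windows held at least once and 0.0142% held 4 times or more. BBC3 had 1 CACGTG. These matches are a description of the letters and not of binding.

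Total human counts were 21695694 to 45789687 per clone and 21426499 to 49990985 per tumor, and murine counts made up 2.44 to 12.7% of the counts of Control and 3.77 to 13.97% of those of sgTWIST1 tumors. Levels are given as CPM, counts scaled to the size of the library, after TMM normalization over the 14 samples. RNA of the edited gene TWIST1 was at 54.6, 55.3 and 49.5 CPM in Control and 27.7, 26.9 and 18.7 CPM in sgTWIST1 clones, and at 54.2 to 80.6 CPM in Control and 18.7 to 38.4 CPM in sgTWIST1 tumors. All 9 NB markers looked up passed the filter, and their summed level was 2825 to 6059 CPM. Much of this was MYCN (979 to 2833 CPM) and CHGA (479 to 2552 CPM), while TH was at 0.196 to 0.444 CPM in sgTWIST1 clones. NB markers also moved with genotype. Of the 9, 5 were higher and 0 lower in Control cells, and 3 higher and 2 lower in Control tumors, beside 36.9% and 47.1% of all genes past the test. The summed level of 10 markers of leukocytes, endothelium, muscle, fibroblasts and adrenal cortex in the human table was 15.7 to 27.3 CPM in Control and 16.2 to 22.0 CPM in sgTWIST1 cells, and 11.3 to 37.7 CPM in Control and 14.8 to 39.7 CPM in sgTWIST1 tumors, and none of the 10 was at 0 in every sample of a group. Of these 10 only CD68, CDH5 and STAR passed the filter on expression, and some moved with genotype. CD68, of macrophages, was at 0.218 to 1.74 CPM in Control and 2.87 to 5.24 CPM in sgTWIST1 clones (adjusted p = 0.0420). STAR, of the adrenal cortex, was at 4.20 to 10.0 CPM in Control and 2.06 to 2.75 CPM in sgTWIST1 clones (adjusted p = 0.0146). CDH5, of endothelium, was at 2.35 to 5.66 CPM in Control and 3.76 to 16.5 CPM in sgTWIST1 tumors (adjusted p = 0.0200). The RNA gene RN7SL1 took 6.54 to 8.77% of the counts of Control and 4.14 to 5.15% of those of sgTWIST1 clones, without overlap, and 4.06 to 16.2% and 4.20 to 11.3% in tumors. The part of these in the differences between Control and sgTWIST1 was not tested.

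Control clone 2 stood apart from the other clones. The 15 genes that p53 represses through p21 and the DREAM complex, most of which drive the cell cycle, summed to 821 CPM in this clone, against 2984 and 2537 CPM in Control clones 1 and 3 and 2492 to 2864 CPM in the sgTWIST1 clones. The same clone had the lowest MDM2, CDKN1A, BAX and PMAIP1 and the highest MDM4, BBC3, GDF15 and CDKN2A of the Control clones. The log2(FC) of cells is therefore also given without it for each of the 9 genes whose call, direction or size (by over 1.5 times) changed. Nothing in the labels says whether clones were cultured separately in time, and p-values measure only the spread between these samples.

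**Figure D1:**
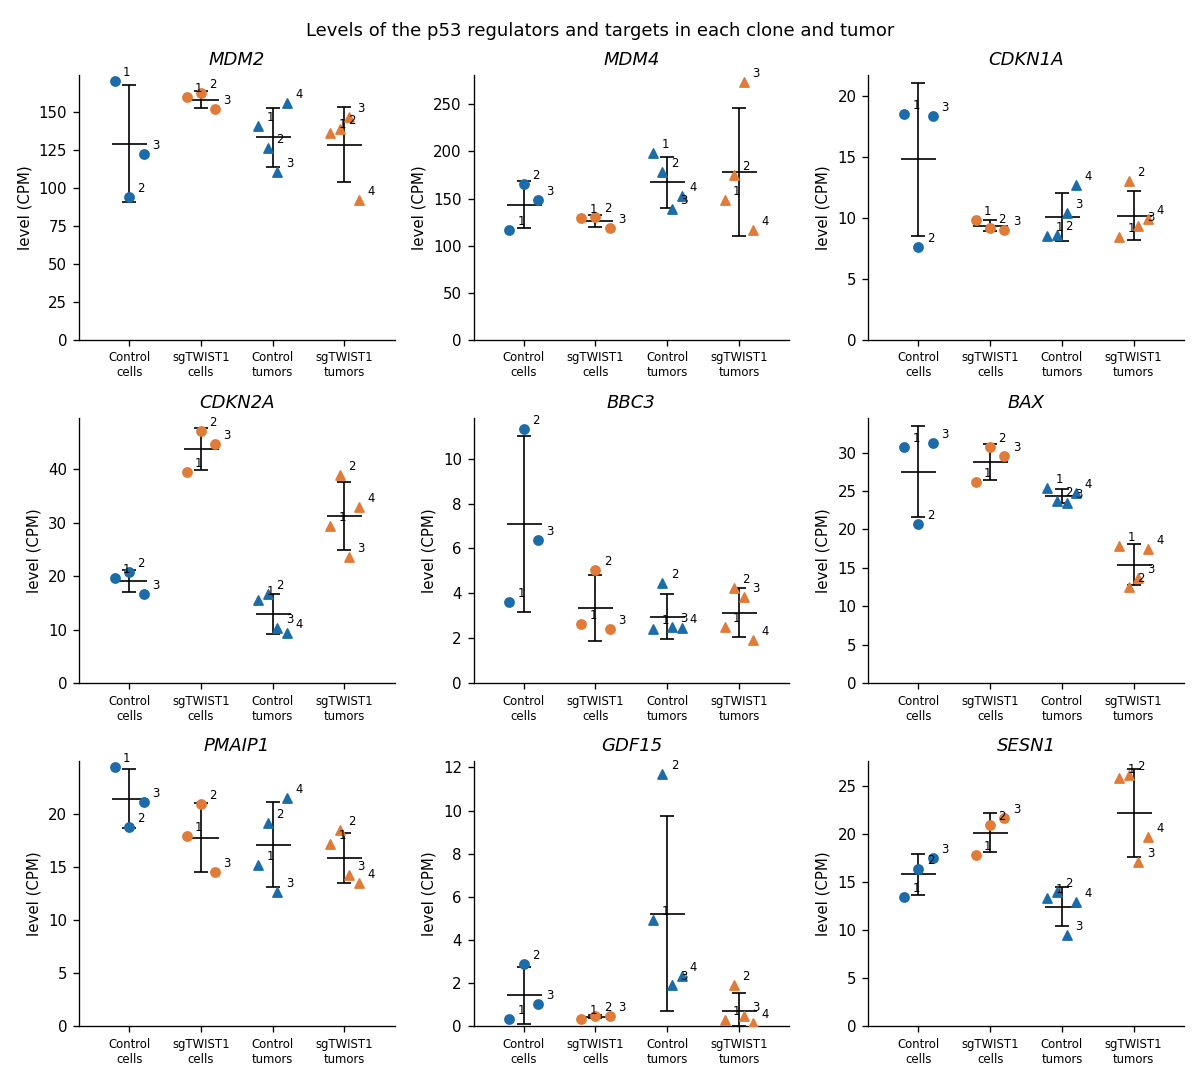
Level of each of the 9 genes in CPM (vertical axes, from 0) in every clone (circles, numbered) and tumor (triangles, numbered) of the 4 groups. Bars show the mean ± SD, cut at 0. CDKN2A and SESN1 separate Control from sgTWIST1 in both cells and tumors, SESN1 in cells by a narrow gap. BAX and GDF15 separate them in tumors. Control clone 2 lies away from Control clones 1 and 3 for CDKN1A, BAX, BBC3 and GDF15.

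To ask which of the 9 genes differed with TWIST1, Control was compared with sgTWIST1 in cells and in tumors, with log2(FC) as Control relative to sgTWIST1 and an adjusted p value (edgeR's quasi-likelihood test, Benjamini-Hochberg over all genes tested) under 0.05 as the test. In cells 1 of 9 passed, CDKN2A, which was lower in Control, against 36.9% of all 10888 genes tested. In tumors 4 of 9 passed, CDKN2A and SESN1, lower in Control, and BAX and GDF15, higher in Control, against 47.1% of all genes. The share in cells was below that of all genes, and the share in tumors was near it. Asking also for a log2(FC) of 1 or more in size, as for DE genes in the study, CDKN2A was left in cells (14.5% of all genes) and CDKN2A and GDF15 in tumors (14.3% of all genes). No overlap between the samples of Control and sgTWIST1 was seen for 2 genes in cells, CDKN2A and SESN1, against 53.1% of all genes, and for 4 in tumors, the same 4 that passed the test, against 36.6%. The median absolute log2(FC) of the 9 genes was 0.32 in cells and 0.14 in tumors, and that of all genes 0.39 and 0.38.

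**Figure D2:**
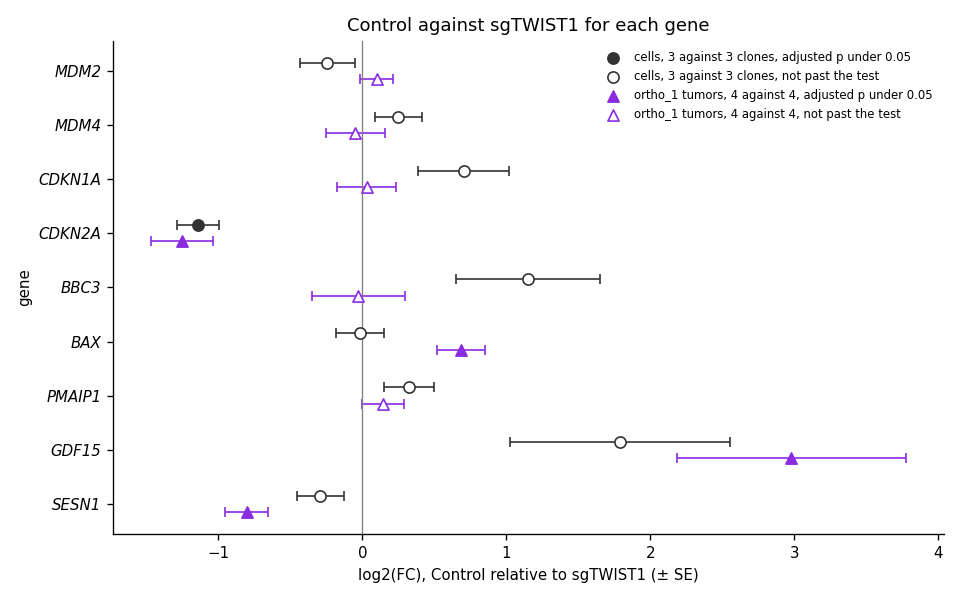
log2(FC) of Control relative to sgTWIST1 (horizontal axis, ± SE) for the 9 genes in cells (circles, 3 against 3 clones) and ortho_1 tumors (triangles, 4 against 4). Filled symbols passed the test: CDKN2A in cells, and CDKN2A, BAX, GDF15 and SESN1 in tumors.

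MDM2, the ubiquitin ligase that marks p53 for destruction (chr12:69201957-69239324, build GRCh37, plus strand), was at 171, 94.5 and 123 CPM in Control and 160.5, 163 and 152 CPM in sgTWIST1 clones. The Control clones spread on both sides of the sgTWIST1 clones, which lay close together (SD 5.40 CPM, n = 3, against 38.6 CPM in Control, n = 3). Its log2(FC) was −0.24 ± 0.19 (SE, adjusted p = 0.351). The call turned on the Control clone with the highest level, since without Control clone 1 the log2(FC) was −0.48 with an adjusted p of 0.0333, and without Control clone 2 it was −0.09 (adjusted p = 0.632). In tumors MDM2 was at 141, 126, 111 and 156 CPM in Control and 136, 139, 147 and 92.6 CPM in sgTWIST1, and the groups overlapped (log2(FC) = 0.10 ± 0.11, adjusted p = 0.501). The interval of 2 SE around it, −0.13 to 0.33, leaves room for a difference of either sign. Counts of MDM2 merge both of its start sites, and the gene overlaps the carboxypeptidase M gene on the opposite strand.

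MDM4, the relative of MDM2 that blocks p53 without degrading it (chr1:204485507-204527248, plus strand), was at 117, 166 and 148 CPM in Control and 129.6, 130.0 and 118 CPM in sgTWIST1 clones (log2(FC) = 0.25 ± 0.16, adjusted p = 0.259). Without Control clone 2 the value was 0.09 (adjusted p = 0.583). In tumors it was at 199, 178, 139 and 152 CPM in Control and 149, 175, 273 and 116 CPM in sgTWIST1. The highest and the lowest tumor were both sgTWIST1, tumors 3 and 4, and the groups overlapped (log2(FC) = −0.05 ± 0.21, adjusted p = 0.868).

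CDKN2A encodes p16, an inhibitor of the kinases CDK4 and CDK6, and from another first exon and reading frame ARF, the inhibitor of MDM2 (chr9:21967751-21995300, minus strand). It was at 19.7, 20.7 and 16.7 CPM in Control and 39.4, 47.1 and 44.7 CPM in sgTWIST1 clones. Every sgTWIST1 clone lay above every Control clone, by about the same amount. The log2(FC) was −1.14 ± 0.14 (adjusted p = 0.00122), a 2.20-fold lower level in Control, and over the clones left out in turn it stayed between −1.24 and −1.06 with adjusted p values of 0.000382 to 0.00853. In tumors it was at 15.4, 16.7, 10.3 and 9.30 CPM in Control and 29.4, 38.9, 23.6 and 32.9 CPM in sgTWIST1. Again no Control tumor reached the lowest sgTWIST1 tumor. The log2(FC) was −1.25 ± 0.21 (adjusted p = 0.000929), 2.38-fold lower in Control, and CDKN2A was the only 1 of the 9 genes past the test in both cells and tumors. The table does not tell p16 from ARF, and the locus overlaps CDKN2B-AS1 on the opposite strand, whose reads cannot be told apart if the counting did not use the strand, which is not given in the sources used here.

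CDKN1A encodes p21, the inhibitor of cyclin-dependent kinases through which p53 halts the cell cycle (chr6:36644237-36655114, plus strand). It was at 18.5, 7.57 and 18.3 CPM in Control and 9.85, 9.21 and 9.02 CPM in sgTWIST1 clones. Control clones 1 and 3 lay above and Control clone 2 below all 3 sgTWIST1 clones. With all clones the log2(FC) was 0.70 ± 0.31 (adjusted p = 0.121), and without Control clone 2 it was 1.00 ± 0.15 (adjusted p = 0.00155). In tumors CDKN1A was at 8.52, 8.58, 10.4 and 12.7 CPM in Control and 8.40, 13.0, 9.36 and 9.92 CPM in sgTWIST1, and the groups overlapped (log2(FC) = 0.03 ± 0.21, adjusted p = 0.917).

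BAX encodes the protein that opens the outer membrane of mitochondria in apoptosis (chr19:49458072-49465055, plus strand). It was at 30.7, 20.7 and 31.2 CPM in Control and 26.2, 30.7 and 29.5 CPM in sgTWIST1 clones, with a log2(FC) of −0.01 ± 0.17 (adjusted p = 0.954), and of 0.13 without Control clone 2 (adjusted p = 0.441). In tumors it was at 25.4, 23.7, 23.5 and 24.8 CPM in Control and 17.8, 12.5, 13.7 and 17.5 CPM in sgTWIST1. All Control tumors were above all sgTWIST1 tumors and varied little among themselves (SD 0.923 CPM, n = 4). BAX was 1.61-fold higher in Control tumors (log2(FC) = 0.69 ± 0.17, adjusted p = 0.00706, exact permutation p = 0.0286, 2-sided, the smallest that 4 against 4 can give). The call was lost when genes of all types (0.67, adjusted p = 0.128) or genes of low counts (0.52, adjusted p = 0.0872) entered the fit.

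BBC3 encodes PUMA and PMAIP1 encodes NOXA, proteins that bind the survival factors of the BCL2 family and so promote apoptosis. BBC3 (chr19:47724079-47736023, minus strand) was at 3.60, 11.3 and 6.37 CPM in Control and 2.61, 5.05 and 2.40 CPM in sgTWIST1 clones. Its mean was higher in Control, 7.11 ± 3.92 against 3.35 ± 1.47 CPM (SD, n = 3 each), but the clones overlapped (log2(FC) = 1.15 ± 0.50, adjusted p = 0.111). The value rested on Control clone 2, without which it was 0.58 (adjusted p = 0.290), while without Control clone 1 it was 1.48 (adjusted p = 0.0364). In tumors BBC3 was at 2.40, 4.46, 2.51 and 2.47 CPM in Control and 2.51, 4.24, 3.84 and 1.94 CPM in sgTWIST1 (log2(FC) = −0.03 ± 0.32, adjusted p = 0.953).

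PMAIP1 (chr18:57567228-57571537, plus strand) was at 24.3, 18.8 and 21.1 CPM in Control and 17.9, 20.9 and 14.5 CPM in sgTWIST1 clones (log2(FC) = 0.32 ± 0.17, adjusted p = 0.187). In tumors it was at 15.1, 19.1, 12.6 and 21.5 CPM in Control and 17.1, 18.5, 14.2 and 13.4 CPM in sgTWIST1 (log2(FC) = 0.14 ± 0.15, adjusted p = 0.448). The groups overlapped in both settings, and none of the alternatives or left-out samples brought it past the test in either.

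GDF15, a secreted stress cytokine of the TGF-beta superfamily that acts on the receptor GFRAL in the brainstem (chr19:18485541-18499986, plus strand), had the widest spread. It was at 0.355, 2.89 and 1.05 CPM in Control clones (13, 108 and 30 counts) and at 0.348, 0.491 and 0.489 CPM in sgTWIST1 clones (16, 21 and 11 counts). Control clone 1 lay among the sgTWIST1 clones, and the other Control clones above them (log2(FC) = 1.79 ± 0.76, adjusted p = 0.105). Without Control clone 2 the value was 0.68 (adjusted p = 0.407) and without Control clone 1 it was 2.26 (adjusted p = 0.0216). In tumors GDF15 was at 4.92, 11.7, 1.93 and 2.32 CPM in Control (170, 281, 97 and 97 counts) and at 0.276, 1.92, 0.452 and 0.163 CPM in sgTWIST1 (13, 52, 10 and 7 counts). Tumor 2 was the highest of each group, and the highest sgTWIST1 tumor came close to the lowest Control tumor without reaching it. GDF15 was 7.88-fold higher in Control tumors (log2(FC) = 2.98 ± 0.80, adjusted p = 0.0110), and between 2.25 and 4.16 on the log2 scale when each tumor was left out, with every adjusted p at or below 0.0334. Per exon length (RPKM) it exceeded the threshold of the expression filter only in Control tumors 1 and 2 (2.36 and 5.61 RPKM). All its other replicates were at 1.38 RPKM or less. GDF15 thus entered the test through the group where it was high, which bears on its comparisons with Control tumors.

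SESN1 encodes a sestrin, a protein that senses stress and restrains the growth kinase mTORC1 (chr6:109305512-109416049, minus strand). It was at 13.5, 16.4 and 17.5 CPM in Control and 17.8, 20.9 and 21.7 CPM in sgTWIST1 clones. The groups did not overlap, though by a narrow gap, and the log2(FC) of −0.29 ± 0.16 did not pass (adjusted p = 0.204, exact permutation p = 0.1, 2-sided, the smallest that 3 against 3 can give). In tumors it was at 13.3, 13.99, 9.50 and 12.9 CPM in Control and 25.8, 26.2, 17.1 and 19.6 CPM in sgTWIST1. Every sgTWIST1 tumor was above every Control tumor, with a log2(FC) of −0.80 ± 0.15 (adjusted p = 0.00136), a 1.74-fold lower level in Control. Since tumors are pieces of tissue, fewer cells that express a gene and less RNA of it per cell cannot be told apart.

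**Figure D3:**
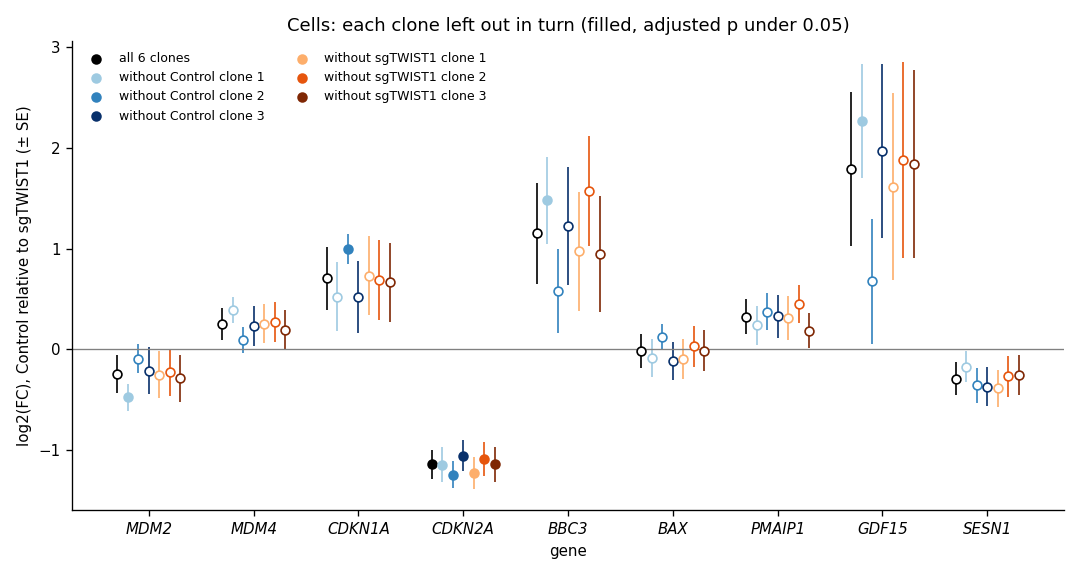
log2(FC) of Control relative to sgTWIST1 cells (vertical axis, ± SE) for the 9 genes with all 6 clones (black) and with each clone left out (colours). Filled symbols have an adjusted p under 0.05. CDKN2A stays between −1.24 and −1.06 throughout, whereas CDKN1A, BBC3 and GDF15 move with Control clones 1 and 2.

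Whether TWIST1 mattered differently in tumors than in cells was tested as the difference of the 2 log2(FC) in a fit of all 4 groups. None of the 9 genes passed with edgeR or with the Wald test of DESeq2, against 12.9% of all genes with edgeR, and 2 had an unadjusted p under 0.05. These were BAX, with a difference of 0.68 ± 0.25 (adjusted p = 0.0861), and SESN1, with −0.53 ± 0.22 (adjusted p = 0.127). BAX passed without sgTWIST1 tumor 4 (0.86, adjusted p = 0.0242) and SESN1 without sgTWIST1 tumor 3 (−0.64, adjusted p = 0.0434). CDKN1A passed without Control clone 2 (−0.97, adjusted p = 0.0460) and MDM2 without Control clone 1 (0.56, adjusted p = 0.0485). For CDKN2A the difference was −0.13, with an interval of 2 SE from −0.70 to 0.44. The calls of BAX, GDF15 and SESN1 in tumors are therefore not shown to be particular to tumors.

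Tumors were also compared with cultured cells of the same genotype, in which growth in the mouse, RNA input and sequencing lanes cannot be told apart. The labels also give another extraction kit for tumors (miRNeasy in place of RNeasy), while the paper's methods name RNeasy for both. In Control, 1 of 9 genes passed, BBC3, which was lower in tumors (log2(FC) of tumors relative to cells −1.20 ± 0.41, adjusted p = 0.0330), against 37.7% of all genes. Without Control clone 2 it was −0.62 (adjusted p = 0.259). The call was also lost without Control clone 3 or without Control tumor 1, 3 or 4, with values of −1.28 to −1.09. BBC3 passed the filter on expression through Control clones, at 3.56 RPKM in clone 2 and 2.00 RPKM in clone 3. Its other replicates were at 1.58 RPKM or less. BBC3 thus entered this test through the group where it was high. GDF15 was higher in Control tumors by 1.87 ± 0.84 on the log2 scale but did not pass (adjusted p = 0.0917), whereas without Control clone 2 it was 3.00 (adjusted p = 0.0295). CDKN1A passed as well without Control clone 2 (−0.72, adjusted p = 0.0187, against −0.43 and 0.215 with it). MDM2 passed without Control clone 1 (0.38, adjusted p = 0.0473) and CDKN2A without Control tumor 2 (−0.59, adjusted p = 0.0459), against 0.15 and −0.48 with all samples. In sgTWIST1, 2 of 9 passed, MDM4 with 0.62 ± 0.22 (adjusted p = 0.0332) and BAX with −0.75 ± 0.18 (adjusted p = 0.00389), against 40.5% of all genes. MDM4 was not past the test without sgTWIST1 tumor 3, the tumor of highest MDM4 (0.35, adjusted p = 0.0892), nor without any 1 of the 3 sgTWIST1 clones (0.58 to 0.65). BAX in sgTWIST1 tumors lay below every sgTWIST1 clone.

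Per exon length (RPKM), MDM2 and MDM4 had the highest means of the 9 genes in every group, and their order changed. In cells the samples of MDM4 overlapped those of the gene next in mean, BAX in Control and CDKN2A in sgTWIST1. In both tumor groups MDM2 and MDM4 did not overlap with the gene next below them. MDM2 had 15.6 ± 4.65 RPKM in Control and 19.1 ± 0.650 RPKM in sgTWIST1 cells (SD, n = 3 each), above MDM4 with 13.0 ± 2.26 and 11.4 ± 0.593 RPKM. These neighbours overlapped in Control cells and did not in sgTWIST1 cells. In sgTWIST1 tumors MDM4 came first with 16.2 ± 6.14 against 15.5 ± 2.96 RPKM of MDM2 (SD, n = 4), within their spread. CDKN2A was sixth in both Control groups, with 4.90 ± 0.527 RPKM in cells and 3.32 ± 0.945 RPKM in tumors and beside CDKN1A without separation, and the third in both sgTWIST1 groups, with 11.3 ± 1.01 and 8.03 ± 1.65 RPKM. BAX and PMAIP1 lay between 5.94 and 11.1 RPKM in mean in all groups. SESN1 lay between 1.71 and 3.05 RPKM and BBC3 between 0.929 and 2.23 RPKM. GDF15 was last in both cell groups and in sgTWIST1 tumors (0.212 to 0.686 RPKM), and in Control tumors it had 2.501 ± 2.17 RPKM, above SESN1 and BBC3 in mean with overlapping samples.

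**Figure D4:**
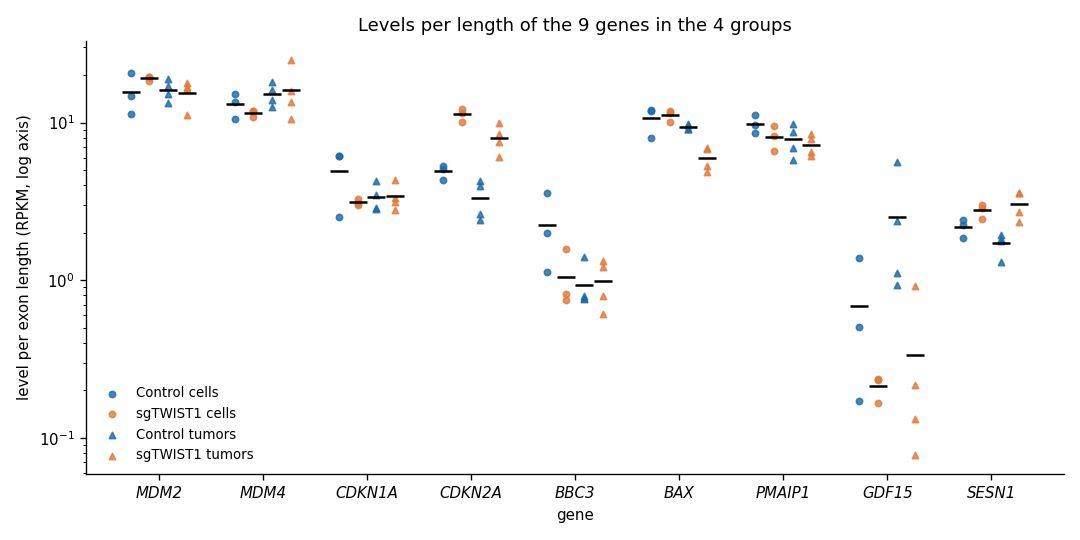
Level per exon length (RPKM, log axis) of the 9 genes in each clone (circles) and tumor (triangles), with the mean of each group as a black line. MDM2 and MDM4 have the highest means in all 4 groups, with samples of MDM4 overlapping those of other genes in cells. CDKN2A moves from beside CDKN1A in Control to near BAX and PMAIP1 in sgTWIST1.

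A list of 20 regulators of p53 and partners of MDM2 or MDM4 was looked up to see the surroundings of the 2 inhibitors. In cells 6 of 20 passed, all higher in Control, and in tumors 7 of 20, all higher in Control. These are smaller shares than the 36.9% and 47.1% of all genes past the test in either direction. Counting only genes higher in Control, they are larger shares than those of all genes (2157 of 10888 in cells and 2617 of 10889 in tumors). The median log2(FC) over the list was 0.11 and 0.23, against 0.00026 and 0.0044 for all genes. The largest difference was that of TRIM28, a corepressor that also binds MDM2, at 155 to 204 CPM in Control and 0.326 to 0.577 CPM in sgTWIST1 clones and at 119 to 185 and 0.361 to 1.58 CPM in tumors (log2(FC) = 8.81 ± 0.25 and 7.76 ± 0.41). HIPK2, a kinase that phosphorylates p53, was higher in Control cells (2.76 ± 0.23) but had 0.38 in tumors (adjusted p = 0.0611), and the difference of −2.40 ± 0.27 passed its own test (adjusted p = 7.73e-05). RPL5, a ribosomal protein that binds MDM2, was higher in Control cells (0.75 ± 0.24) but had −0.25 in tumors (adjusted p = 0.196). Its difference of −1.01 ± 0.28 between tumors and cells also passed (adjusted p = 0.0303). In tumors AURKA (0.78 ± 0.13), a mitotic kinase that stabilizes MYCN, and PPM1D (0.61 ± 0.092), a phosphatase that turns p53 signalling off, were higher in Control.

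Other targets of p53 did not move in 1 direction. Of 17 tested for growth arrest, repair and feedback, 3 were higher and 6 lower in Control cells and 3 higher and 7 lower in Control tumors, with a median log2(FC) of −0.05 and −0.46, beside the 36.9% and 47.1% of all genes that passed. PLK2, a polo-like kinase, was lower in Control in both (−2.52 ± 0.19 in cells, −1.76 ± 0.28 in tumors). Of the 3 largest differences in cells, 2 were lower in Control, PLK2 among them, and 1 was higher, CPT1C, a carnitine palmitoyltransferase of neurons (1.53 ± 0.43). CPT1C was also higher in Control tumors (1.10 ± 0.22). In tumors SUSD6 (−1.85 ± 0.15) and ZMAT3 (−1.25 ± 0.13), a zinc finger protein that binds RNA, were lower in Control. Both also passed in cells, lower in Control (−0.68 ± 0.13 and −0.59 ± 0.14). The difference between tumors and cells passed for both (adjusted p = 0.00180 and 0.0392). Of 8 targets for cell death none passed in cells, with 4 at an unadjusted p under 0.05, and 2 were higher in Control tumors, APAF1, the core of the apoptosome (0.79 ± 0.12), and AIFM2 (0.62 ± 0.18), which protects lipids from oxidation. The median log2(FC) of the 8 was −0.04 in cells and 0.10 in tumors. Without Control clone 2, a setting added after the values had been seen, 1 of the 8 was higher and 1 lower in Control cells, with a median of −0.23, beside 44.4% of all genes that passed without this clone (36.9% with it).

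The 15 genes repressed through p21 and DREAM had no call in cells by edgeR, nor an unadjusted p under 0.05. In tumors 9 of 15 were higher in Control, none lower, beside the 47.1% of all genes that passed in either direction. Of all 10889 genes, 2617 were higher in Control tumors. Their median log2(FC) was −0.29 in cells and 0.62 in tumors. FOXM1, a transcription factor of mitotic genes (1.21 ± 0.089), TOP2A, a topoisomerase (0.99 ± 0.15), and PLK1, a mitotic kinase (0.95 ± 0.11), led in tumors. By sample the 15 genes summed to 2427, 2417, 2227 and 3045 CPM in Control and 1838, 1809.8, 1604 and 1482 CPM in sgTWIST1 tumors, without overlap. The difference between tumors and cells passed for none of the 15 with all samples (5 at an unadjusted p under 0.05). In the added setting without Control clone 2, the median in cells was 0.04, 2 of 15 were higher in Control cells and 4 of 15 passed the test of the difference, against 44.4% and 10.9% of all genes without this clone. The levels of CDKN1A, which encodes p21, overlapped between the tumor groups. The cause of the difference of the 15 genes in tumors was not tested.

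Of 13 tested relatives of CDKN1A and CDKN2A and kinases that they inhibit, 2 were higher and 3 lower in Control cells and 5 higher and 3 lower in Control tumors (median log2(FC) −0.21 and 0.06), so 5 and 8 of 13 passed beside 36.9% and 47.1% of all genes. CDKN2B, the neighbour of CDKN2A that encodes the related inhibitor p15, was lower in Control in both, with −1.60 ± 0.25 in cells (adjusted p = 0.00267) and −1.71 ± 0.26 in tumors (adjusted p = 0.000506). It was at 2.16 to 3.16 CPM in Control and 7.86 to 9.60 CPM in sgTWIST1 clones, and at 1.63 to 3.71 and 5.60 to 11.2 CPM in tumors. CDKN2C, which encodes p18, was lower in Control in both (−1.18 ± 0.39 in cells, adjusted p = 0.0488, and −1.01 ± 0.13 in tumors). CCND1, the cyclin that activates CDK4 and CDK6, was higher in Control in both (1.55 ± 0.20 and 1.87 ± 0.13), and CDK6 in cells (2.03 ± 0.16). CDK6 had 0.18 in tumors (adjusted p = 0.371), and its difference of −1.86 ± 0.23 between tumors and cells passed (adjusted p = 0.000155). The 10 genes tested nearest to CDKN2A on its chromosome, CDKN2B among them, had a median log2(FC) of 0.37 in cells and 0.25 in tumors, so that they did not share its direction as a group (4 higher and 2 lower in Control cells, 5 and 3 in tumors). Around SESN1, 6 of the 10 nearest genes were lower in Control tumors and none higher (median −0.41), beside the 47.1% of all genes that passed in either direction. Of all 10889 genes, 2507 were lower and 2617 higher in Control tumors. Around MDM2, which did not pass itself, 6 of 10 were higher in Control tumors and none lower (median 0.32). Around GDF15 1 was higher and 1 lower, and around BAX none passed in tumors.

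The relatives of SESN1 went in different directions. SESN2, another stress-induced sestrin, was higher in Control cells (1.40 ± 0.17) and tumors (0.66 ± 0.23), and SESN3 was lower in both (−0.95 ± 0.13 and −1.23 ± 0.22). Of the 3 tested relatives of SESN1 and GDF15, the third was GDF11, a growth factor of the same superfamily as GDF15, which was higher in Control tumors (0.45). GFRAL, the receptor of GDF15, did not pass the filter on expression.

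All 9 murine orthologs were present in the murine table at low counts, which come from the cells of the host. Reads that matched both genomes had been kept by the authors with the human counts, so the murine share bears on low human values. Murine Gdf15 had 3 to 46 counts in Control and 10 to 14 counts in sgTWIST1 tumors, which is 1.07 to 47.4% and 19.2 to 171% of the human GDF15 counts. Murine Cdkn2a had 3 to 29 counts in the 8 tumors and at most 5.62% of the human counts. Murine Sesn1 reached 79.2% and murine Bax 28.2% of the human counts in a Control tumor, and 34.7 and 36.1% in an sgTWIST1 tumor. The part of murine reads in the human values was not tested.

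Over the 14 samples, SESN1 and CDKN2A had the highest Pearson correlation of log2 CPM among the 36 pairs of the 9 genes (r = 0.84), and the other 35 lay between −0.58 and 0.53. The gene most like each in its pattern over the 14 samples, out of 10889, was TYK2 for CDKN2A (r = 0.96), RAPGEF3 for GDF15 (0.96), MTIF3 for SESN1 (0.96), RAB1B for BAX (0.95), CELF1 for MDM2 (0.95), ZNF587 for MDM4 (0.92), SNX32 for BBC3 (0.91), GGH for CDKN1A (0.90) and ARPC3 for PMAIP1 (0.86). The samples share genotype and culture or tumor, so these values describe the order of the samples only.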

How the data were processed

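RNA of 3 Control and 3 sgTWIST1 clones and of 4 Control and 4 sgTWIST1 ortho_1 tumors was sequenced as single reads after depletion of ribosomal RNA. Per the labels and methods the authors aligned the reads with STAR 2.5.2b to human (hg19) and mouse (mm10), separated them by organism and deposited expected counts per gene from RSEM 1.3.0, without normalization. Whether the counting used the strand is not given in the sources used here.

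Expected counts were rounded and the batches of a clone summed (19 samples to 14 replicates), since batches of 1 clone differed less (median chi-square over genes 0.724 to 0.837) than different clones (2.74 to 14.7). Genes that code for proteins and exceeded 1 on the log2 RPKM scale in any of the 19 columns were tested with edgeR 4.0.16 (R 4.3.3, TMM, quasi-likelihood test, Benjamini-Hochberg). Gene types and coordinates came from GENCODE on GRCh37 by Ensembl identifier, and promoter sequences from RefSeq on GRCh38.p14, in which all 9 genes had an entry. The SE is the unshrunken coefficient divided by the root of F. Floors and counts cover counting error only. The test was checked on simulated data. Alternatives were DESeq2 1.42.0, its size factors, other filters, batch 1 alone, all groups in 1 fit, a replicate block and each replicate left out. Figures were drawn with matplotlib 3.10.9.

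The members and lists, written from general knowledge, were chosen with earlier results of these data known. Named in the text are the 9 genes, TWIST1, TRIM28, up to 3 genes per list and comparison of largest absolute log2(FC) among those past the test without overlap of the groups, and the most alike gene of each member. Other genes named from the lists (GDF11, GFRAL) were chosen after their values were seen. The RNA of the p53 gene itself and some further genes of the lists are not reported here.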

Additional observations from a re-analysis of the deposited data

Results flagged for a closer look

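Among the 9 genes in the 2 groups of 4 tumors, 2 groups had 1 sample far from the other 3, where chance alone marks about 1 group in 20. BBC3 was at 4.46 CPM in Control tumor 2, with the other Control tumors at 2.40 to 2.51 CPM. GDF15 was at 1.92 CPM in sgTWIST1 tumor 2, with the other sgTWIST1 tumors at 0.163 to 0.452 CPM. Tumors 2 of the 2 genotypes share only a number.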

How the results depend on the processing

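With all clones, 1 of the 9 genes passed in cells under all alternatives except the replicate block, with 2 genes (BBC3 added, log2(FC) 1.07, adjusted p = 0.0285). Leaving out 1 clone gave 1 to 4 genes, with 4 without Control clone 1 and 2 without Control clone 2. The labels do not say that equal numbers pair the samples. Deviations of same-numbered clones from their group means correlated at 0.0994 to 0.314, above the mean of −0.188 to −0.0743 with other numbers. In tumors these values were −0.190 to 0.282 and −0.109 to 0.0597. Whether the clones were paired was not tested. Under the block 4261 genes passed in cells against 4018, and 4700 in tumors against 5124, with 4 members in tumors as before. In tumors 4 genes passed whichever tumor was left out, 3 with genes of all types or without a filter (BAX lost), and 2 where log2(FC) also had to reach 1 in size. Without a filter the median of all genes was −0.16 in tumors and −0.21 for the difference between tumors and cells. The test of that difference gave 0 genes under every alternative and 0 to 1 with a sample left out. For Control tumors against Control cells, DESeq2 gave 2 genes (GDF15 added), no filter gave 3 (CDKN2A and SESN1 added) and left-out samples gave 0 to 2, where BBC3 was lost without Control clone 2 (−0.62) and, with a log2(FC) of −1.28 to −1.09 against −1.20, without Control clone 3 or Control tumor 1, 3 or 4. For sgTWIST1 tumors against cells, genes of all types gave 1 and no filter gave 1 (MDM4 lost), and left-out samples 1 to 2. The cause of these changes was not tested. No direction of a member past the test reversed. With 3 or 4 samples a group, differences smaller than about 2 SE could not be told from 0. Some larger than 2 SE did not pass either, such as those of CDKN1A, BBC3 and GDF15 in cells. GDF15 rested on as few as 7 counts.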
